A study of Homo sapiens with 6 samples.

Results

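The genes described here are 42 genes of mitosis and of the G2/M step of the cell cycle, namely mitotic kinases and cyclins, the chromosomal passenger complex, the spindle assembly checkpoint, anaphase regulators, kinetochore proteins, spindle motors, cytokinesis proteins and chromosome proteins. They were picked by symbol from the 19845 gene symbols of the deposited counts. All 42 were present and all 42 passed the filter on low counts, with between 150 and 12008 reads per gene and library. The study asked what loss of COX4I1, a nuclear-encoded subunit of cytochrome c oxidase (Complex IV of the respiratory chain), does to acute myeloid leukemia cells. Molm13, a human acute myeloid leukemia line with an MLL rearrangement, was made to express the Cas9 nuclease stably, and 3 RNA libraries carried control guides against non-essential sequences (sgCtrl) and 3 carried guides against the coding sequence of COX4I1 (sgCOX4I1). Cells of both groups were infected with lentivirus made from the ipUSEPR guide vector, which carries puromycin resistance. The paper describes puromycin selection for its library screens. The time between infection and harvest is not given in the sources used here. The paper describes the RNA-seq cells as transduced cells and names no cloning step for them, so uncut cells can remain in a sgCOX4I1 culture. The labels number the libraries #1 to #3 in each group and the study describes its RNA-seq samples as 3 independent guide sequences per group, so the spread between libraries of a group includes differences between guides.

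A cell enters mitosis when cyclin B and CDK1 become active, condenses its chromosomes, attaches them through kinetochores to the spindle, and separates them once the anaphase-promoting complex (APC/C) is released from the spindle checkpoint. Many mRNAs of this kind are scarce in G1 and accumulate from S phase to mitosis, through promoter elements bound by the MuvB, B-MYB and FOXM1 proteins and by NF-Y. Such mRNAs are therefore commonly read as a measure of how many cells of a culture are dividing. In RNA from a whole culture, fewer cells in G2 and mitosis and less mRNA in each of them cannot be told apart.

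Promoters of these genes are shown first because many of the genes are known to be co-regulated through 2 short elements. One is the core of the cell cycle genes homology region (CHR), spelled TTTGAA, and the other is the NF-Y box, spelled CCAAT. RefSeq promoter windows on build GRCh38.p14, running from 250 bases before to 50 bases after an annotated start, were present for 35 of the 42 genes. AURKA, BIRC5, BUB3, HMGB2, TPX2, TTK and UBE2C had no entry. The promoters of MKI67 and STMN1, whose mRNAs fell, and of CDK1 and CCNB1, whose mRNAs did not pass the test, are given below up to 30 bases after the start, on the strand of the gene and at the first listed start. They lie at chr10:128126394-128126673 for MKI67 (minus strand), chr1:25906390-25906669 for STMN1 (minus strand), chr10:60778081-60778360 for CDK1 (plus strand) and chr5:69166900-69167179 for CCNB1 (plus strand). Capitals mark TTTGAA or CCAAT on either strand, so TTCAAA and ATTGG count as well.
MKI67: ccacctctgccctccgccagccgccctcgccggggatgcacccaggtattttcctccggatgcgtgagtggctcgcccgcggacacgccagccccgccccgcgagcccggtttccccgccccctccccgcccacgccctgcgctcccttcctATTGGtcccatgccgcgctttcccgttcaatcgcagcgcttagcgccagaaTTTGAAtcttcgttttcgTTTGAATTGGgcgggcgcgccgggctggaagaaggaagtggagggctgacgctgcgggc
STMN1: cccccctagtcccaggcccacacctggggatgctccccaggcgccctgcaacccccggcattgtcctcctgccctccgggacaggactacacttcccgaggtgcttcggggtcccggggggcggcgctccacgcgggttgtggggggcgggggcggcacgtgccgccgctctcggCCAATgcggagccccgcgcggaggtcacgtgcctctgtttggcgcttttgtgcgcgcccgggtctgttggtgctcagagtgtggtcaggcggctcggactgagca
CDK1: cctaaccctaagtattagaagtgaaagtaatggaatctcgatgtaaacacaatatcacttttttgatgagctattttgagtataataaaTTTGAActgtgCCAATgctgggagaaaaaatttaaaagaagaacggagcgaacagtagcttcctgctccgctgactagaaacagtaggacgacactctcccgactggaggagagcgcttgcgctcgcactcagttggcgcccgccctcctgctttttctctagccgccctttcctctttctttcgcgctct
CCNB1: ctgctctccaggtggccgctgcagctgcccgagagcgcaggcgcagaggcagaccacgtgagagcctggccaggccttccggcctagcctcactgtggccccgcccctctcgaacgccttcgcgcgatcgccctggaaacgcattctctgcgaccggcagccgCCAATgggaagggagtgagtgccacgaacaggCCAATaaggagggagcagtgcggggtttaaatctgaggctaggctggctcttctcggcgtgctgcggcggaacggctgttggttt
In these windows MKI67 had 2 CHR cores and 2 NF-Y boxes, the last of which overlapped the second CHR core. STMN1 had 1 NF-Y box and 0 CHR cores. CDK1 had 1 of each at this start, and CCNB1 had 2 NF-Y boxes and 0 CHR cores. Only these exact spellings were searched, so a variant spelling of either element would not be counted.

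Both elements were frequent across the set. A CHR core lay in the window of 25 of the 35 genes (71.4%), an NF-Y box in 29 (82.9%) and both in 21 (60.0%), counting a match at any listed start, on either strand. Among the 9251 tested genes with a window the shares were 13.8%, 43.4% and 5.75%. At least 2 NF-Y boxes lay in 18 of the 35 genes (51.4%) against 16.1% of tested genes. The other mitosis genes listed below held a CHR core in 45.5%, and DNA replication genes in 7.84%. Among the genes of the set whose mRNA was separated between groups, a CHR core lay in 5 of 8 and an NF-Y box in 7 of 8, and among those whose groups overlapped, in 20 of 27 and 22 of 27. A match is a description of the letters in the window and says nothing of binding. The 2 elements overlapped each other in 2 of the 47 promoters listed for these genes.

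**Figure D1:**
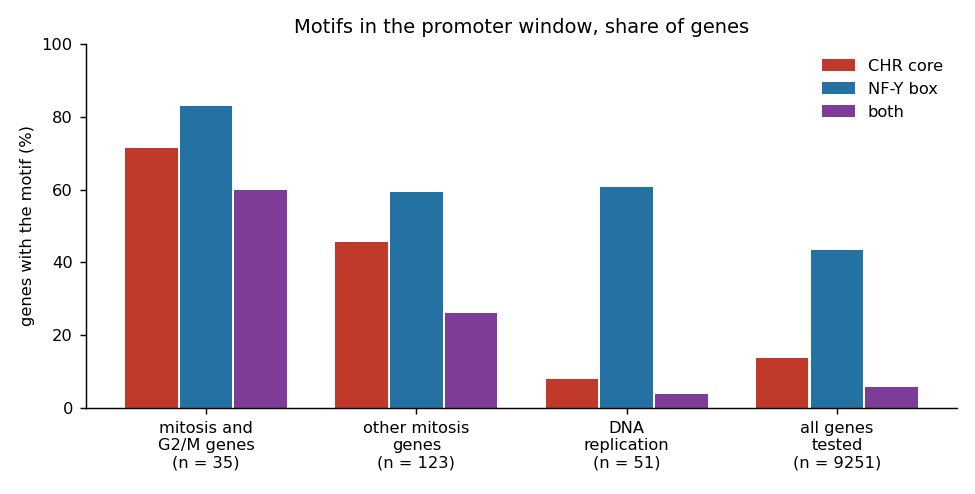
Share of genes (%, vertical axis) whose RefSeq promoter window holds the CHR core, the NF-Y box or both, for 4 gene lists with the number of genes in the table under each. The 35 mitosis and G2/M genes have the highest bar of each kind, 71.4% for the CHR core against 13.8% of all genes tested.

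Library totals ran from 17241014 to 30861943 counts. All 8 myeloid markers examined (CD33, FLT3, SPI1, CEBPA, MPO, LYZ, HOXA9 and MEIS1) lay above 1 CPM in every library, whereas the erythroid marker HBB and the epithelial marker EPCAM had 0 counts, the lymphoid markers CD3E and MS4A1 had at most 2 counts per library, and COL1A1, KRT8 and KRT18 reached 0.712, 3.65 and 13.8 CPM. COX4I1, the targeted gene, was measured at 513, 502 and 463 CPM (counts scaled to a common library total after TMM normalization in edgeR) in the sgCtrl libraries. The sgCOX4I1 libraries, given like every set of 3 values below in the order #1, #2 and #3, kept 26.7%, 76.7% and 27.0% of the control mean. On the log2 scale COX4I1 mRNA differed by -1.21 (sgCOX4I1 minus sgCtrl, as for all fold changes here), with a standard error of 0.29. The lowering of the target mRNA missed the threshold (adjusted p = 0.0512, edgeR, with 11861 genes tested). Without sgCOX4I1 #2 the log2 fold change was -1.90 and passed the threshold, and it also passed without sgCtrl #1 (-1.18) or without sgCtrl #3 (-1.25). These values are of mRNA and do not measure COX4I1 protein. By immunoblot, the paper reports reduced COX4I1 protein in cells given sgCOX4I1 guides. The protein level in the cultures of these RNA libraries is not given in the sources used here.

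Most mitosis and G2/M genes had a slightly lower level in sgCOX4I1 cells, and few differed by more than the spread between libraries. Of the 42 genes, 38 had a log2 fold change below 0 and 4 above 0 (34 below 0 on library size without TMM), and the median was -0.15, which is 90.2% of the sgCtrl level, against a median of -0.0023 over all 11861 genes tested, of which 50.6% lay below 0. Single genes ranged from -0.41 (HMGB2) to 0.07 (ANLN), and none reached a 2-fold change. STMN1, HMGB2 and MKI67 fell at an adjusted p under 0.05 in edgeR's quasi-likelihood test, which is 3 of 42 genes, and 0 genes of the set rose. Over all genes tested, 2.08% passed, 1.02% in the lower direction and 1.06% in the higher, and 0.202% passed with a 2-fold change. At an unadjusted p under 0.05 there were 11 genes of the set, all lower (8.41% of all genes), and 0 higher (8.9% of all genes). DESeq2 called 7 genes lower, the 3 above with CENPE, CENPF, ESPL1 and TPX2 (2.07% of all genes), and 0 higher. In 11 of the 42 genes the highest sgCOX4I1 library was below the lowest sgCtrl library, and in 0 genes was the order the opposite. Over all genes 10.4% were separated in the lower direction and 11.2% in the higher. These shares count 42 genes, many of which are transcribed together, and the genes are not independent of each other.

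**Figure D2:**
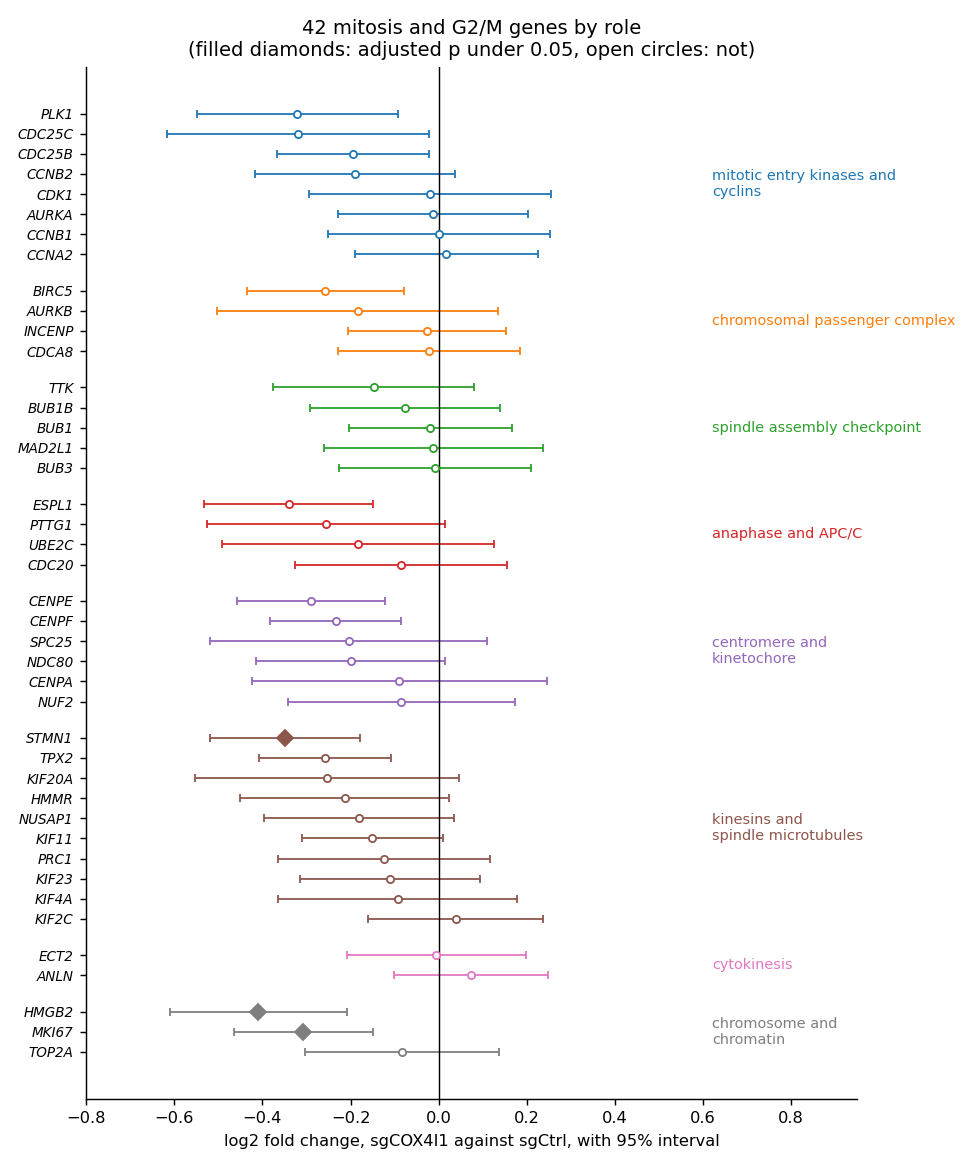
Log2 fold change of sgCOX4I1 against sgCtrl (horizontal axis) with its 95% interval for each of the 42 genes, grouped and coloured by role. Filled diamonds mark STMN1, HMGB2 and MKI67, which had an adjusted p under 0.05, and most other intervals cross 0.

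Among the regulators of mitotic entry, the kinase PLK1 and the CDC25 phosphatases lay lowest and CDK1, CCNB1 and CCNA2 lay near 0. PLK1, which drives mitotic entry and spindle maturation, was at 156, 141 and 119 CPM in sgCtrl libraries and 116, 121 and 96.1 CPM in sgCOX4I1 libraries. The groups overlapped because sgCOX4I1 #2 exceeded sgCtrl #3. The log2 fold change of PLK1 was -0.32 (95% interval -0.55 to -0.09, adjusted p = 0.138, edgeR). CDC25B, 1 of the phosphatases that remove the inhibitory phosphates from CDK1, was at 64.5, 63.9 and 70.9 CPM against 57.5, 62.0 and 54.9 CPM. CDC25C, a phosphatase of the same family, was at 12.3, 11.9 and 10.4 CPM against 10.2, 9.30 and 8.25 CPM. Both were lower in all 3 sgCOX4I1 libraries than in any sgCtrl library, although sgCtrl #3 and sgCOX4I1 #1 were close for CDC25C, and neither passed the test (log2 fold change -0.20 and -0.32, adjusted p = 0.226 and 0.248, edgeR).

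CDK1, the master kinase of mitosis, was at 114, 86.9 and 78.3 CPM in sgCtrl libraries and 106, 89.2 and 80.4 CPM in sgCOX4I1 libraries. CCNB1, the cyclin B subunit that activates it, was at 89.3, 81.0 and 65.2 CPM against 88.8, 79.6 and 67.4 CPM. In both genes library #1 was high and library #3 low in either group, and same-numbered libraries were close to each other. The log2 fold change was -0.02 for CDK1 (95% interval -0.29 to 0.25) and 0.00 for CCNB1 (95% interval -0.25 to 0.25), with adjusted p = 0.959 and 0.998 by edgeR. CCNA2, cyclin A of S and G2 phase, had a log2 fold change of 0.02, AURKA, the centrosomal Aurora kinase, -0.01 and CCNB2, the second cyclin B, -0.19, and none of them passed the test. Over the 6 libraries CCNA2 ran from 84.7 to 107 CPM, AURKA from 44.1 to 55.9 and CCNB2 from 53.4 to 78.3. The median over the 8 entry genes was -0.10.

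**Figure D3:**
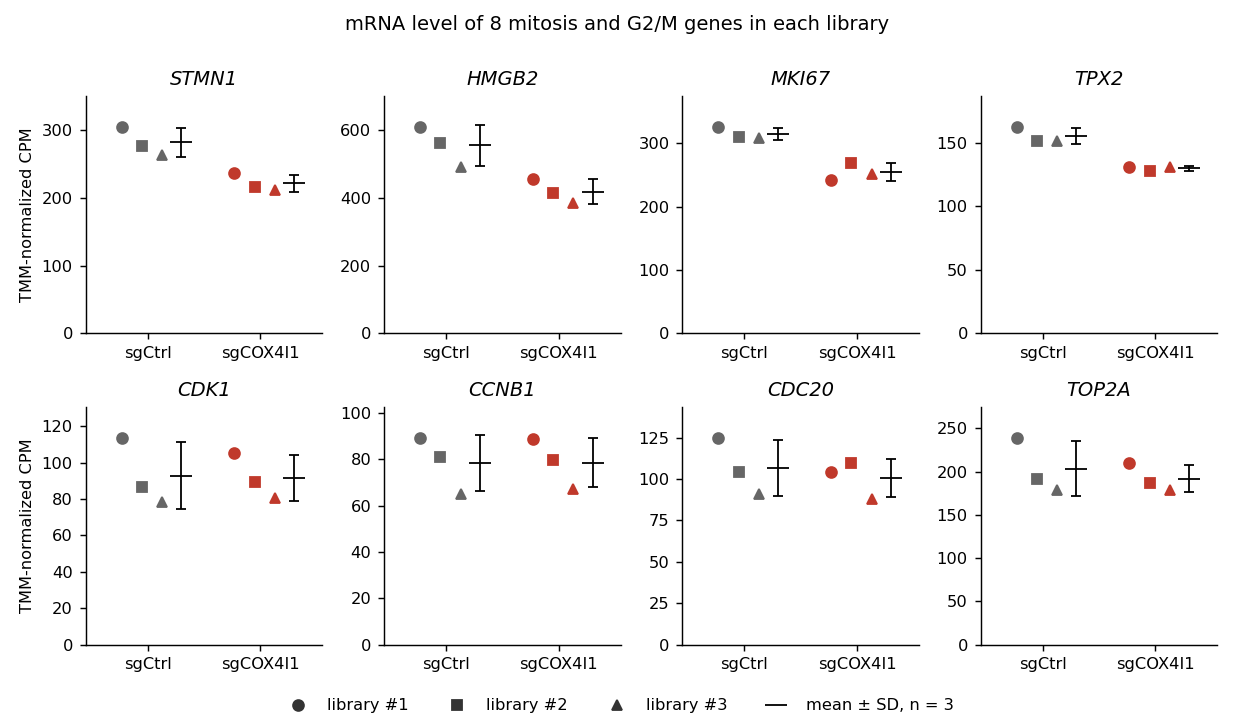
TMM-normalized CPM (vertical axes, from 0) of 8 genes in each library, with the symbol giving the library number and the bar the mean ± SD of 3 libraries. STMN1, HMGB2, MKI67 and TPX2 are separated between groups, and CDK1, CCNB1, CDC20 and TOP2A overlap.

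The chromosomal passenger complex, which corrects wrong attachments of chromosomes to the spindle, had a median of -0.11 over 4 genes. BIRC5 (survivin), its subunit at the centromere, was at 93.5, 85.9 and 93.2 CPM in sgCtrl libraries against 77.5, 82.1 and 68.8 CPM in sgCOX4I1 libraries. Every sgCOX4I1 library lay below every sgCtrl library, and the log2 fold change was -0.26 with a standard error of 0.083 (adjusted p = 0.128, edgeR). AURKB, the kinase of the complex, was at 60.1, 59.2 and 40.9 CPM against 56.8, 45.1 and 39.2 CPM, where sgCtrl #3 lay among the sgCOX4I1 libraries (log2 fold change -0.18, 95% interval -0.50 to 0.14). The scaffold INCENP and the subunit CDCA8 (borealin) were at -0.03 and -0.02.

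The 5 genes of the spindle assembly checkpoint, which holds the APC/C until all kinetochores are attached, lay closest to 0 of the larger groups, with a median of -0.02. Their log2 fold changes were -0.15 for TTK, the kinase that starts the signal, -0.08 for BUB1B, -0.02 for BUB1, -0.01 for MAD2L1 and -0.01 for BUB3. In none of the 5 were the groups separated. BUB3, which binds the BUB1 kinases to kinetochores, ran from 314 to 401 CPM, and its highest libraries were sgCtrl #1 and sgCOX4I1 #1. MAD2L1, whose protein is the diffusible inhibitor of the APC/C, ran from 49.6 CPM in sgCtrl #3 to 71.8 CPM in sgCtrl #1, with all 3 sgCOX4I1 libraries between those values.

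The 4 genes that act at anaphase had a median of -0.22. ESPL1 (separase), the protease that cuts cohesin between sister chromatids, was at 52.2, 58.3 and 65.1 CPM in sgCtrl libraries and 46.5, 47.4 and 45.0 CPM in sgCOX4I1 libraries. Here the sgCtrl libraries were spread more widely than the sgCOX4I1 libraries, with sgCtrl #1 the lowest of its group, as in no other gene of the set, and the groups were separated (-0.34 on the log2 scale, standard error 0.089, adjusted p = 0.0659, edgeR). PTTG1 (securin), the inhibitor of separase, was at 55.5, 46.5 and 39.4 CPM against 45.5, 38.4 and 34.5 CPM, with overlap between groups (-0.26, adjusted p = 0.318, edgeR). CDC20, the activator of the APC/C and the second highest gene of the set per kilobase of exon, was at 125, 104 and 91.1 CPM against 104, 109.9 and 87.8 CPM. Its groups overlapped almost completely, and its log2 fold change was -0.09 (95% interval -0.33 to 0.16). UBE2C, the ubiquitin-conjugating enzyme of the APC/C, was at -0.18.

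Kinetochore genes had a median of -0.20 over 6 genes, with the large outer-kinetochore proteins separated between groups and the NDC80 complex overlapping. CENPE, a kinesin that captures microtubules, was at 60.5, 55.9 and 55.7 CPM in sgCtrl libraries against 46.7, 48.9 and 45.2 CPM in sgCOX4I1 libraries. CENPF, a coiled-coil protein of G2 nuclei and kinetochores, was at 262, 248 and 249 CPM against 213, 222 and 211 CPM. Both had a narrow spread in either group and a gap between groups wider than the spread within either, and neither passed the test (log2 fold change -0.29 and -0.23, standard error 0.078 and 0.069, adjusted p = 0.0752 and 0.0980, edgeR). NDC80 and its partners SPC25 and NUF2 were at -0.20, -0.20 and -0.08, and CENPA, the histone variant that marks centromeres, was at -0.09.

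Spindle genes formed the largest group, 10 kinesins and microtubule proteins with a median of -0.17. STMN1 (stathmin), which destabilises microtubules until it is phosphorylated in mitosis and which is abundant in leukemia cells, lies on the minus strand of chromosome 1 from 25884181 to 25906991 (GENCODE 44, GRCh38). It was at 305, 276 and 263 CPM in sgCtrl libraries and 236, 215 and 212 CPM in sgCOX4I1 libraries. Library #1 was the highest in each group, and still sgCOX4I1 #1 lay below sgCtrl #3. STMN1 fell by 0.35 on the log2 scale (95% interval -0.52 to -0.18, adjusted p = 0.0376, edgeR). TPX2, which activates Aurora A on the spindle, was at 163, 152 and 152 CPM against 131, 128 and 131 CPM with a narrow sgCOX4I1 spread and a difference of -0.26 on the log2 scale (95% interval -0.41 to -0.11, adjusted p = 0.0756, edgeR). KIF11, the motor that pushes spindle poles apart, was separated between groups at -0.15, and sgCOX4I1 #2 lay just below sgCtrl #2 (109 and 109.6 CPM). KIF4A, a chromosome-bound kinesin and the second lowest gene per kilobase, was at 22.7, 20.9 and 17.5 CPM against 20.8, 20.1 and 16.6 CPM (log2 fold change -0.09). The other members were at -0.25 for KIF20A, -0.21 for HMMR, -0.18 for NUSAP1, -0.12 for PRC1, -0.11 for KIF23 and 0.04 for KIF2C. PRC1 shares 57.6% of its exonic bases with another annotated gene of the same strand. For NUSAP1 the overlaps with OIP5-AS1 and ENSG00000285920, added together, came to 86.8%, and bases in both are counted for each. The counts of NUSAP1 and PRC1 are therefore uncertain. Added over genes in the same way, smaller overlaps on the same strand included BUB1B (10.2%) and CENPA (7.08%). On the opposite strand PLK1 (12.8%), CCNA2 (9.24%) and CDC25C (8.80%) also shared bases with other genes, and whether counting used strand is not given.

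Chromosome proteins had the lowest median of the roles, -0.31 over 3 genes, with 2 of them past the threshold. HMGB2, a DNA-bending chromatin protein, lies on the minus strand of chromosome 4 from 173331376 to 173334432 and had the highest level of the set per kilobase of exon (202 CPM per kb, against 51.6 for CDC20, 4.32 for KIF4A and 3.13 for CDC25C). It was at 609.9, 562 and 491 CPM in sgCtrl libraries and 456, 413 and 384 CPM in sgCOX4I1 libraries. Library #1 was the highest and #3 the lowest of each group, and the groups did not overlap. HMGB2 fell by 0.41 on the log2 scale (95% interval -0.61 to -0.21, adjusted p = 0.0394, edgeR). MKI67, the proliferation antigen Ki-67 that coats mitotic chromosomes, lies on the minus strand of chromosome 10 from 128096659 to 128126423 and was at 326, 309 and 308 CPM against 242, 269 and 252 CPM. The sgCtrl libraries lay close together, and sgCOX4I1 #1 was the lowest of its group, as in no other gene of the set. MKI67 fell by 0.31 on the log2 scale (95% interval -0.46 to -0.15, adjusted p = 0.0460, edgeR). TOP2A, the topoisomerase that untangles chromosomes and a marker of the same phases, was at 239, 192 and 179 CPM against 209.9, 187 and 179 CPM, with overlap (log2 fold change -0.08, 95% interval -0.30 to 0.14). Of the cytokinesis proteins, ECT2, which activates RhoA at the cleavage furrow, was at -0.01 and ANLN (anillin), which scaffolds the contractile ring, at 0.07. Per kilobase of exon, the levels after HMGB2 and CDC20 followed closely on each other, from BUB3 (43.3 CPM per kb), STMN1 (40.2), TPX2 (39.6) and UBE2C (36.4) down to ESPL1 and SPC25 (both 5.90), ECT2 (5.26) and CENPE (5.26). MKI67 stood at 22.1 CPM per kb. Pseudogenes named after STMN1, HMGB2 and MKI67 are annotated, as for several other genes of the set, UBE2C and AURKA among them. The counting could have lost or misplaced some reads of all these genes.

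Each of the 3 calls was lost when 1 of several libraries was left out. Leaving out sgCtrl #2, sgCOX4I1 #2 or sgCOX4I1 #3 left 0 genes of the set past the threshold by edgeR, with 11, 10 and 7 of them lower at an unadjusted p under 0.05. Calls over all genes fell in the same fits from 247 to 24, 51 and 89, and 668 of 11999, 865 of 12001 and 860 of 11940 genes were lower at an unadjusted p under 0.05, so the loss of calls in these 3 fits was not particular to these genes. Leaving out sgCtrl #1 left HMGB2 and gave ESPL1, leaving out sgCtrl #3 left HMGB2 and STMN1 and gave PLK1, and leaving out sgCOX4I1 #1 left HMGB2 and STMN1. Over all genes these fits called 561 of 12042, 263 of 11916 and 230 of 11952. Without sgCtrl #1 calls thus rose over all genes and went from 3 to 2 in the set. MKI67 was not called with any library left out, nor on library size without TMM (adjusted p = 0.0503, edgeR). STMN1, HMGB2 and MKI67 stayed below 0 in each of these fits.

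The libraries of a group differed from each other in these genes by as much as the groups did. Taken as the median over the 42 genes of the log2 level against the sgCtrl mean, the sgCtrl libraries stood at 0.17, -0.02 and -0.16 and the sgCOX4I1 libraries at -0.01, -0.16 and -0.23, while the same median over all genes stayed between -0.00075 and 0.0064. The position of sgCOX4I1 #1 was thus above that of sgCtrl #2 and #3. sgCtrl #1 was the highest sgCtrl library in 40 of 42 genes (38.4% of all genes) and sgCtrl #3 the lowest in 34, and sgCOX4I1 #3 was the lowest of its group in 34. In 32 of 42 genes the difference between group means was smaller than the range of the 3 sgCtrl libraries, the median range being 0.32 and the median difference 0.15 on the log2 scale. Without sgCtrl #1 the median log2 fold change of the set was -0.03 with 24 of 42 genes lower, and without sgCOX4I1 #3 it was -0.07 with 28 lower. Without sgCtrl #3 or sgCOX4I1 #1 it was -0.22 and -0.21, with 40 and 41 genes lower. What sets sgCtrl #1 apart in these genes was not tested.

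**Figure D4:**
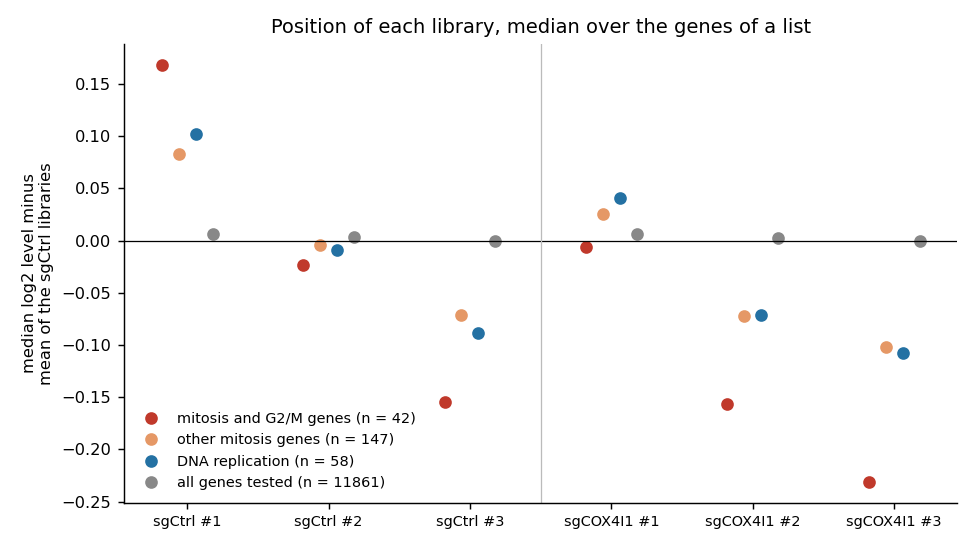
Median over the genes of a list of the log2 level minus the mean of the sgCtrl libraries (vertical axis), for each of the 6 libraries. The mitosis and G2/M genes run from 0.17 in sgCtrl #1 to -0.16 in sgCtrl #3 and from -0.01 to -0.23 in the sgCOX4I1 libraries, the other cell-cycle lists follow with a smaller range, and all genes stay near 0.

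Other genes of mitosis, a list of 147 further kinetochore, spindle, cohesin, condensin, APC/C and regulatory genes of which all were tested, had a median closer to 0, and the difference between the lists was not tested. Of these, 88 were lower and 59 higher, the median was -0.04, and 0 passed the threshold by edgeR. At an unadjusted p under 0.05, 28 were lower (8.41% of all genes) and 7 higher (8.9% of all genes). DESeq2 called 4 lower, KIF22, KNTC1, NCAPH2 and TACC3 (2.07% of all genes). KIF22, a kinesin that moves chromosome arms, was at 159.8, 155 and 148 CPM in sgCtrl libraries against 133, 127 and 120.3 CPM in sgCOX4I1 libraries (log2 fold change -0.28, adjusted p = 0.0610, edgeR). NCAPH2, a condensin II subunit, and KNTC1, the Rod protein of the kinetochore, were at -0.28 and -0.30 (adjusted p = 0.0722 and 0.0811, edgeR), and all 3 genes were separated between groups. Spindle and cytokinesis genes of this list had a median of -0.12, other kinetochore genes -0.06, condensin and cohesin -0.05, APC/C subunits -0.02, mitotic entry regulators 0.0072 and the MuvB, B-MYB and FOXM1 regulators 0.06. Of these 15 regulators, 6 were lower and 9 higher. In the lower direction 2 were separated (FOXM1 and MYBL2), against 10.4% of all genes. In the higher direction 4 were separated (LIN54, E2F4, TFDP1 and NFYA, named after their values were seen), against 11.2% of all genes. FOXM1, the transcription factor of late cell-cycle genes, was at 87.0, 80.4 and 76.1 CPM against 70.2, 64.2 and 66.1 CPM, with no overlap (log2 fold change -0.28, standard error 0.079, adjusted p = 0.0856, edgeR). MYBL2 (B-MYB), which binds the same promoters with the MuvB complex, was at 194, 188 and 178 CPM against 156, 168 and 149.5 CPM, also with no overlap (-0.24, adjusted p = 0.110, edgeR). LIN54, a DNA-binding subunit of MuvB, was at 11.6, 13.6 and 11.5 CPM against 15.6, 15.1 and 15.1 CPM (0.32, adjusted p = 0.183, edgeR). E2F4, the E2F protein of repressor complexes, was at 80.3, 77.5 and 68.2 CPM against 92.4, 92.1 and 82.3 CPM (0.24, adjusted p = 0.165, edgeR). None of the 15 regulators passed the test.

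DNA replication genes, the cell-cycle group that precedes mitosis, showed a median of -0.05 over 58 genes, 43 lower and 15 higher. In edgeR 0 passed the threshold, with 10 lower (8.41% of all genes) and 1 higher (8.9% of all genes) at an unadjusted p under 0.05. DESeq2 called 3 lower, namely UHRF1, CDT1 and TK1 (2.07% of all genes). UHRF1, which carries DNA methylation through replication, was at 216, 218 and 221 CPM in sgCtrl libraries and 161, 188 and 178 CPM in sgCOX4I1 libraries (log2 fold change -0.31, adjusted p = 0.0508, edgeR). CDT1, which licenses replication origins, was at -0.29 and TK1, thymidine kinase, at -0.33 (adjusted p = 0.0512 and 0.0642, edgeR). The difference between the shift of this list and that of the mitosis and G2/M genes was not tested.

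**Figure D5:**
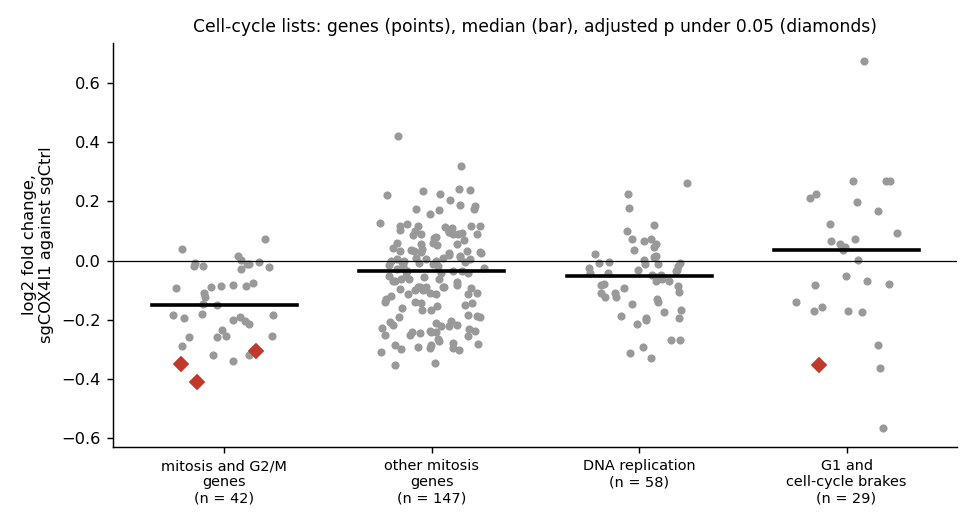
Log2 fold change of sgCOX4I1 against sgCtrl (vertical axis) for each gene of 4 cell-cycle lists (points), with the median of each list as a bar and genes at an adjusted p under 0.05 as diamonds. The medians are -0.15, -0.04, -0.05 and 0.03 from left to right, and single genes of each list lie on both sides of 0.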

How the data were processed

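RNA-seq counts of Molm13 cells with Cas9 were used, from 3 sgCtrl and 3 sgCOX4I1 libraries. The authors deposited 1 table of raw whole-number counts per gene symbol, without normalization. The submitters' processing notes name bcl2fastq 2.20.0.422, STAR 2.6.0a, edgeR and GRCh38, and the column names point to marked duplicates and HTSeq, whereas the methods describe Bowtie2 and RSEM. The library kit keeps strand, and whether counting used it is not given in the sources used here. Columns were matched to samples by letter and number (C for sgCtrl, K for sgCOX4I1).

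Counts were analysed in R 4.3.3 with edgeR 4.0.16, using TMM normalization, the edgeR expression filter by group, and 1 quasi-likelihood fit (glmQLFit and glmQLFTest) of all 6 libraries with group as its term. P-values of the 11861 tested genes were adjusted by Benjamini and Hochberg. A gene was called below an adjusted p of 0.05, and the 2-fold threshold of the methods is given beside it. Standard errors were taken as the log2 fold change divided by the square root of F, and 95% intervals from the matching t quantile. The total of a library limits a gene with 0 counts to between 0.0972 and 0.174 CPM, for counting error only. Replicate pairs differed by more than sampling noise (chi-square per degree of freedom 10.6 to 26.6). With 3 libraries against 3, an exact two-sided permutation test cannot go below p = 0.1. The model code was tested on simulated data.

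Members and lists were chosen with earlier results of these data known. Values in every library are given for called members, the 12 with the smallest p, the 2 highest and 2 lowest per kilobase, and CDK1, CCNB1, PLK1, AURKB, CDC20, TOP2A and MKI67. In other lists they are given for called genes and for some of the 3 genes with the smallest p and of the named regulators. The others are given by log2 fold change, by mean and SD, or by name. KIF11 was added after its values were seen. Levels per kilobase use the exon union of GENCODE 44. Alternatives were DESeq2 1.42.0, library size without TMM, limma-voom (limma 3.58.1), no low-count filter, at least 10 counts in every library, a block for the replicate number, and each library left out in turn.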

Additional observations from a re-analysis of the deposited data

How the results depend on the processing

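The median of the 42 mitosis and G2/M genes stayed between -0.15 and -0.14 under every change of test, normalization or filter and between -0.22 and -0.03 with 1 library left out. Of these genes, 24 kept their direction under all 12 alternatives. The number called was 3 and became 2 on library size without TMM (MKI67 lost), 4 with no low-count filter, 7 with DESeq2 and 11 with the replicate number as a block, and 0 to 3 with 1 library left out.

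The count over all genes was 247 and became 466 with DESeq2, 537 with no low-count filter, 1408 with the replicate block and 24 to 561 with 1 library left out. The log2 fold change of COX4I1 passed the threshold with no low-count filter (-1.205), limma-voom (-1.401) and the replicate block (-1.391). With 1 library left out it ranged from -1.895 to -0.954, and passed without sgCtrl #1, sgCtrl #3 or sgCOX4I1 #2. Other mitosis genes called went from 0 to 4 with DESeq2, 2 with no low-count filter, 25 with the block and 0 to 4 leaving out a library. DNA replication genes called went from 0 to 3 with DESeq2 or no low-count filter, 2 with at least 10 counts or limma-voom, 8 with the block and 0 to 3 leaving out a library. G1 and cell-cycle brakes called went from 1 to 3 with DESeq2 or no low-count filter, 0 on library size without TMM, 10 with the block and 0 to 3 leaving out a library. Without a filter 15168 genes were tested, against 11861 with it. The cause of these changes was not tested.

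Members near 0 changed sign. On library size without TMM, AURKA was at 0.000987, BUB3 at 0.0048, MAD2L1 at 0.000715 and ECT2 at 0.0078, and MAD2L1 was at 0.000389 with limma-voom and 0.00030 with the replicate block. With 1 library left out, log2 fold changes ran from -0.13 to 0.15 for CDK1, -0.040 to 0.12 for CCNA2, -0.12 to 0.10 for CCNB1, -0.11 to 0.061 for AURKA, -0.086 to 0.023 for INCENP, -0.099 to 0.048 for CDCA8, -0.064 to 0.056 for BUB1, -0.16 to 0.041 for BUB1B, -0.10 to 0.088 for BUB3, -0.14 to 0.12 for MAD2L1, -0.19 to 0.042 for CDC20, -0.25 to 0.047 for CENPA, -0.21 to 0.051 for NUF2, -0.064 to 0.10 for KIF2C, -0.19 to 0.0062 for KIF4A, -0.24 to 0.00091 for PRC1, -0.069 to 0.031 for ECT2 and -0.17 to 0.048 for TOP2A.

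Same-numbered libraries are not stated to share a batch, so the block was kept as an alternative only. The correlation of their deviations from the group means was 0.38, -0.02 and 0.29 for numbers 1, 2 and 3. For libraries of unlike number it lay between -0.38 and 0.13. Over the 42 genes alone the correlations were 0.64, -0.11 and 0.61, against -0.71 to 0.36 for unlike numbers. Library #1 was the highest of both groups in 31 genes. With the block, 20 of the 42 genes were lower at an unadjusted p under 0.05 by edgeR, against 1578 of 11861 genes. What same-numbered libraries share was not tested.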

Other observations

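Regulators of G1 and brakes on the cell cycle did not move one way. Of 31 genes listed, 29 were tested, 13 lower and 16 higher, and their median lay at 0.03 on the log2 scale. In edgeR 1 of them passed the threshold, against 2.08% of all genes. It was E2F1, the transcription factor of S-phase entry, at 44.5, 49.6 and 46.2 CPM in sgCtrl libraries and 37.1, 34.9 and 37.7 CPM in sgCOX4I1 libraries. The fall of E2F1 was -0.35 in log2 units (standard error 0.083, adjusted p = 0.0437, edgeR), without overlap between groups, and was not called on library size without TMM, nor with any library left out except sgCtrl #1. CDKN2D, the p19 inhibitor of CDK4 and CDK6, was at 18.4 ± 2.62 CPM in sgCtrl libraries and 12.5 ± 1.95 CPM in sgCOX4I1 libraries (SD, n = 3 each), without overlap (log2 fold change -0.57, adjusted p = 0.0617, edgeR). E2F8, a repressor of E2F targets late in the cycle, was at -0.36 (adjusted p = 0.0766, edgeR). CDKN1A, the p21 inhibitor of cyclin-dependent kinases, was at 397, 414 and 412 CPM against 431, 551 and 493 CPM, higher in every sgCOX4I1 library than in any sgCtrl library (0.27, adjusted p = 0.139, edgeR). CDKN2A and CDKN2B did not pass the filter on low counts.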
